A study of Mus musculus with 6 samples.

Results

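The genes described here are 10 genes of the insulin, growth hormone and insulin-like growth factor (IGF) axis, read in mouse liver by RNA sequencing. They were chosen by symbol, as the ligand Igf1, the receptors Insr and Ghr, the adaptors Irs1 and Irs2, the inhibitor Socs2, and the circulating binding proteins Igfbp1, Igfbp2, Igfbp4 and Igfals, and they are 10 of the 20673 genes in the deposited tables. The study asked how a short high-cholesterol diet changes the liver before sepsis is induced. Livers were taken from C57BL/6J mice, about 3 months old, of which 3 had been fed a regular diet (RD) and 3 a high-cholesterol diet (HCD) for 3 days. The HCD also held cocoa butter and sodium cholate, a bile salt, so cholesterol, fat and cholate cannot be told apart in any difference between the diets. No mouse of either group had undergone surgery, each mouse gave 1 library of whole-liver RNA, and males and females were used in the study.

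Insulin binds the receptor Insr on hepatocytes, and the adaptors Irs1 and Irs2 pass its signal to PI3 kinase and AKT, which keep FOXO1 out of the nucleus. Growth hormone binds Ghr, which acts through JAK2 and STAT5 to raise Igf1 and Igfals and also Socs2, a feedback inhibitor of the same receptor. The liver is the main source of circulating IGF-I, which travels in a complex with a binding protein and the acid-labile subunit encoded by Igfals, and Igfbp1 and Irs2 are classical genes that insulin restrains through FOXO1.

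The libraries of the RD livers held 13771630 to 23129576 read counts and those of the HCD livers 13935491 to 18545549, where 3 counts corresponded to 0.130 to 0.243 CPM, counts scaled to a common library total with TMM factors. HCD replicate 1 was from a female by its RNA, with Xist at 254 CPM against 0 in the other 5 livers and all of Ddx3y, Uty, Kdm5d and Eif2s3y at 0 only there. Growth hormone secretion differs between the sexes in mice, and the livers differed in genes known to follow it. Mup20 was at 37.1 CPM in that liver and 2900 to 5004 in the others, and Cyp2d9 at 43.6 against 931 to 2010, while the female-biased Sult2a1 was at 793 against at most 0.207. Sex therefore cannot be told apart from diet for that liver, and values without it are given beside the members' results. Hepatocyte markers summed to 82517 to 115988 CPM with RD and 90409 to 130497 with HCD. Most of this was Alb, at 63316 to 91138 CPM with RD and 70712 to 105649 with HCD. In whole liver, fewer cells of a type and less RNA per cell cannot be told apart.

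The promoters of 3 members are shown because they hold letters known from insulin- or growth hormone-regulated genes, and because Igfbp1 and Irs2 were lowest in 1 and the same liver and highest in another. Each is the 250 bases before a RefSeq start site on GRCm38.p6, 5′ to 3′ on the strand of the gene, with matches to the searched letters in capitals. For Igfbp1 (chr11:7197537-7197786, plus strand) and Irs2 (chr8:11008930-11009179, minus strand) the capitals mark CAAAACA or its reverse complement, a core of the insulin response element. In Igfals (chr17:24877981-24878230, plus strand) they mark GTAAACA on the reverse strand, a FOXO core, and TTCNNNGAA, the STAT5 core.
Igfbp1: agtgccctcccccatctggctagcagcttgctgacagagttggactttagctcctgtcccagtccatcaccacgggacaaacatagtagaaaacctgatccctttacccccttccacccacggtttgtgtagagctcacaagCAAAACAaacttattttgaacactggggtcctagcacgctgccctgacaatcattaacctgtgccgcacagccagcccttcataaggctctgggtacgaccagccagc
Irs2: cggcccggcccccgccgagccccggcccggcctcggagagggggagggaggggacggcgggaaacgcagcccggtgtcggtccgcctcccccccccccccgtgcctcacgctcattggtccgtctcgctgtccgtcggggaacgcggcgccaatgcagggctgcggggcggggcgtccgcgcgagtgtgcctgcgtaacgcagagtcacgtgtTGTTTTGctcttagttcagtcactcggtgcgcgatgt
Igfals: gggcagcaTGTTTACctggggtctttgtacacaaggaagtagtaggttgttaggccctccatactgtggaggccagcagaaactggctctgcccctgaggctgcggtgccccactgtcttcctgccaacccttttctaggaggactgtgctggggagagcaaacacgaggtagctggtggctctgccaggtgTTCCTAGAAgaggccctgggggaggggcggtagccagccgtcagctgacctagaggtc
Counted from the start site, the match lay at bases -108 to -102 in Igfbp1 and at -37 to -31 in Irs2. The Igfals window held its STAT5 core at -58 to -50 and its FOXO core at -242 to -236, and another Igfals start site had a STAT5 core at -236 to -228. Irs1 held CAAAACA on the reverse strand at -111 to -105 and at -32 to -26. No searched letters were found in the windows of Igf1, Ghr, Igfbp2 and Igfbp4, and 8 of the 10 genes had a window. Among 32851 RefSeq windows of this length, on both strands, 5.56% held CAAAACA, 3.17% GTAAACA and 7.02% TTCNNNGAA. A match is a description of these letters and was not tested as a binding site.

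Igfbp2 and Igfbp4 were the most abundant members in FPKM, a unit that corrects for gene length and depth and so allows levels to be compared between genes. Over the 6 livers, Igfbp2 averaged 497 FPKM (range 329 to 703) and Igfbp4 481 FPKM (411 to 539). Next came Igfbp1 at 127 FPKM (10.6 to 343), Igfals at 87.0 FPKM (70.1 to 98.8), Ghr at 75.5 FPKM (67.0 to 80.5) and Igf1 at 62.5 FPKM (45.1 to 72.3). Insr at 11.3 FPKM (8.63 to 13.8), Irs2 at 8.63 FPKM (2.83 to 21.7), Socs2 at 4.62 FPKM (0.344 to 6.90) and Irs1 at 1.76 FPKM (1.09 to 2.26) were lower. Between neighbours in this order, the ranges were apart only from Igfbp4 to Igfbp1 and from Igf1 to Insr, and all other neighbours overlapped. Every value of Ghr, Igf1 and Igfals in FPKM was thus above every value of Insr, Irs1 and Irs2. The Igfals levels rest on the gene length used for FPKM, which was 2111 bases by the deposited values and 3167 by the GENCODE annotation, whereas the other 9 members had the same length in both. With the GENCODE length the mean of Igfals would be 58.0 FPKM, below those of Ghr and Igf1.

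**Figure D1:**
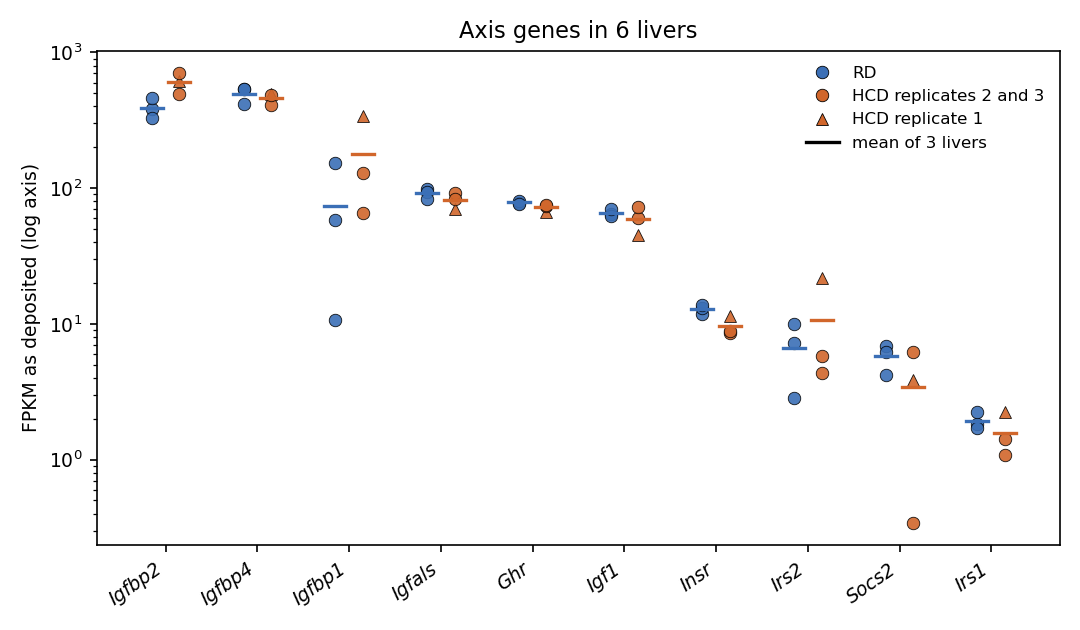
FPKM of the 10 genes (log axis) in each of 3 RD (blue) and 3 HCD (orange) livers, ordered by mean level, with a bar for the mean of each diet and a triangle for HCD replicate 1. Igfbp2 and Igfbp4 sit highest, with means of 497 and 481 FPKM, and Igfbp1, Irs2 and Socs2 show the widest spread between livers of the same diet.

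None of the 10 genes passed the test of diet after adjustment over all genes tested, while 3.27% of the 13105 genes tested were called, at an adjusted p under 0.05 in edgeR's quasi-likelihood test. All 10 passed the filter on low counts, 3 were higher and 7 lower with HCD, and their median log2 fold change was -0.16 against 0.01 for all genes tested. At an unadjusted p of 0.05 or less stood 2 of the 10, Igfbp2 (higher) and Insr (lower), where the share among all genes tested was 20.9%. DESeq2 called 1 of the 10, Igfbp2, with 6.97% of all genes it adjusted. RD and HCD livers were fully apart in CPM for 3 of the 10, Insr, Ghr and Igfbp2, against 27.6% of all genes tested. For a single gene, an exact permutation test of 3 livers against 3 cannot give a p under 0.10. Without HCD replicate 1, edgeR called 0 of the 10, against 2.61% of all genes tested, and 1 higher and 2 lower members stood at an unadjusted p of 0.05 or less, against 10.4% and 9.74%.

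**Figure D2:**
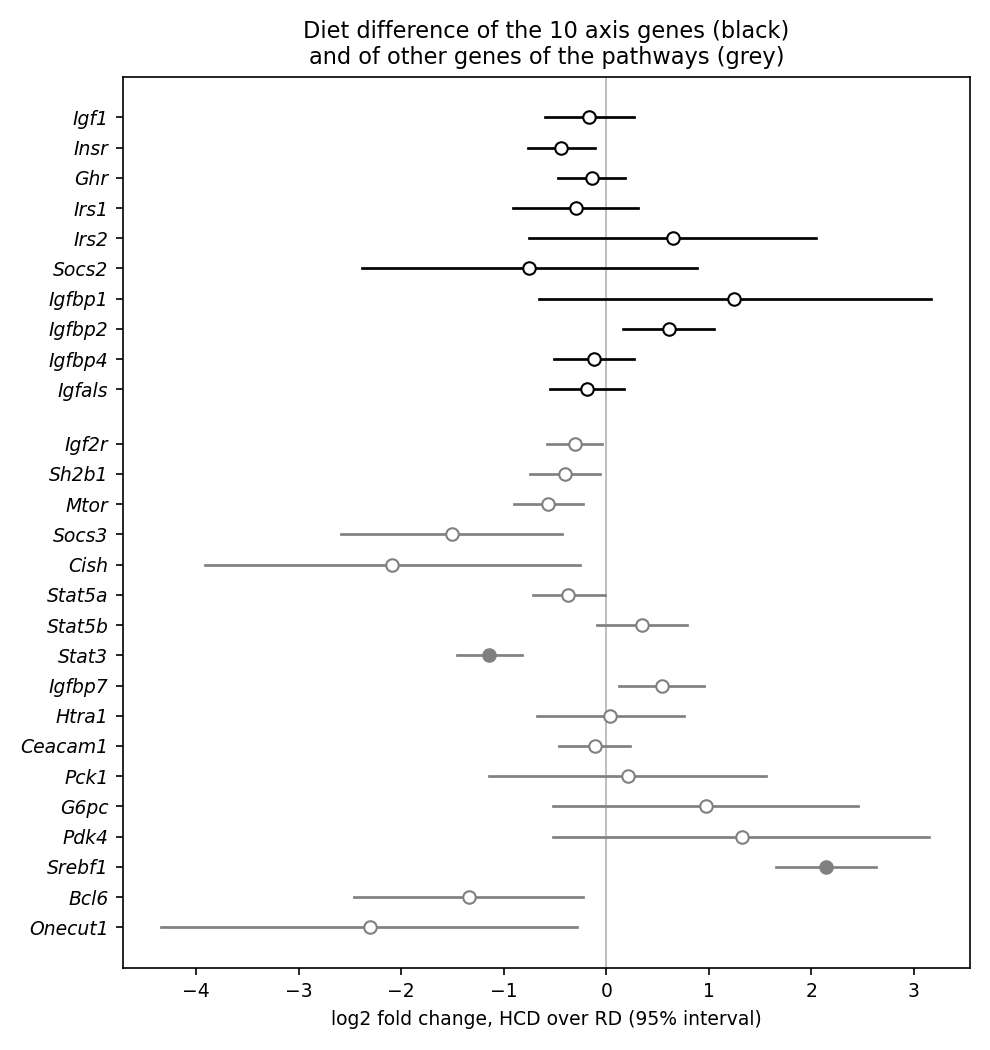
Log2 fold change of HCD over RD with its 95% interval from edgeR for the 10 genes (black) and for other genes of the same pathways named in the text (grey), with filled points at an adjusted p under 0.05. Among the 10, only the intervals of Insr (-0.76 to -0.11) and Igfbp2 (0.16 to 1.05) leave out 0, and the filled points are Stat3 and Srebf1.

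Igf1 (ENSMUSG00000020053, chromosome 10) encodes IGF-I, the hormone through which much of the growth hormone effect on growth is exerted. Its TMM-scaled CPM were 437, 429 and 468 in RD replicates 1 to 3 and 296, 414 and 478 in HCD replicates 1 to 3. The diets overlapped, and the lowest liver was HCD replicate 1. RD livers averaged 445 ± 21.1 CPM (SD, n = 3) and HCD livers 396 ± 92.2, and the log2 difference was -0.17 (standard error 0.19, adjusted p = 0.662 in edgeR). Without HCD replicate 1 the difference was 0.00 (adjusted p = 0.989), and with a trend of the libraries with gene length removed it was -0.02 (adjusted p = 0.971). The 95% interval with all 6 livers, -0.60 to 0.27, still holds both a modest fall and a smaller rise in Igf1 RNA.

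Insr (ENSMUSG00000005534, chromosome 8), the insulin receptor, was read at 112, 125 and 127 CPM in the RD livers and at 105, 82.0 and 81.9 CPM in the HCD livers. Every HCD liver lay below every RD liver, with HCD replicate 1 nearest to the RD livers. The means of 121 ± 7.89 and 89.6 ± 13.2 CPM (SD, n = 3) gave a fold of 0.738 (95% interval 0.589 to 0.926). On the log2 scale the difference was -0.44 (standard error 0.14), with an unadjusted p = 0.0147 and an adjusted p = 0.136 in edgeR, so Insr was not called. Its adjusted p lay between 0.0683 and 0.353 over the alternatives, the lowest without HCD replicate 1, where the log2 fold change was -0.57. Of the members Insr has the longest exons, 13746 bases, and with a trend of the libraries with gene length removed its log2 fold change was -0.28 (adjusted p = 0.287).

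Ghr (ENSMUSG00000055737, chromosome 15), the growth hormone receptor, was the steadiest member. CPM were 488, 508 and 467 with RD and 402, 465 and 456 with HCD. The HCD livers lay below the RD livers, but the gap from 467 to 465 CPM was small beside the spread within either diet. Means were 488 ± 20.6 and 441 ± 34.0 CPM (SD, n = 3), and the log2 difference was -0.14 (standard error 0.14, 95% interval -0.47 to 0.18, adjusted p = 0.595 in edgeR). Without HCD replicate 1 the Ghr value was -0.08 (adjusted p = 0.776), and with the trend with gene length removed it was -0.02 (adjusted p = 0.969).

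Irs1 (ENSMUSG00000055980, chromosome 1) and Irs2 (ENSMUSG00000038894, chromosome 8) encode the adaptors that insulin and IGF-I receptors phosphorylate. Irs1 was read at 11.4, 11.0 and 13.8 CPM with RD and at 13.5, 9.03 and 6.65 CPM with HCD, and the diets overlapped through HCD replicate 1. Its log2 fold change was -0.30 (standard error 0.27, adjusted p = 0.557 in edgeR), and without HCD replicate 1 it was -0.62 (unadjusted p = 0.0308, adjusted p = 0.197). The Irs1 value was -0.19 without RD replicate 3 and -0.10 without HCD replicate 3. Irs2 was read at 12.3, 31.9 and 41.9 CPM with RD and at 90.8, 25.3 and 18.5 CPM with HCD. One HCD liver, replicate 1, was above all others for Irs2, and the other 2 HCD livers lay within the RD range. The Irs2 log2 fold change was 0.65 (standard error 0.62, adjusted p = 0.585 in edgeR) and turned to -0.39 (adjusted p = 0.665) without that liver. Both genes share exonic sequence with a gene on the opposite strand, Gm9747 for Irs1 and 9530052E02Rik for Irs2, and since no source used here gives the strand setting of the counting, reads of the partners cannot be told apart.

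Socs2 (ENSMUSG00000020027, chromosome 10) encodes an inhibitor of growth hormone signalling that growth hormone itself induces. Its CPM were 45.2, 41.6 and 26.7 with RD and 24.3, 40.7 and 2.19 with HCD. HCD replicate 3, with 27 counts, was far below the other 5 livers, HCD replicate 2 was among the RD livers, and the diets overlapped. The means were 37.8 ± 9.82 and 22.4 ± 19.3 CPM (SD, n = 3), and the log2 difference of HCD from RD was -0.75 (standard error 0.71, adjusted p = 0.59 in edgeR). Without HCD replicate 3 the Socs2 log2 fold change was -0.23 (adjusted p = 0.719), without HCD replicate 2 it was -1.48 (adjusted p = 0.304), and without HCD replicate 1 it was -0.81 (adjusted p = 0.629).

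Igfbp1 (ENSMUSG00000020429, chromosome 11) encodes a binding protein that sequesters IGF-I and falls quickly when insulin rises. It was read at 11.2, 62.4 and 156 CPM with RD and at 347, 69.3 and 131 CPM with HCD. RD replicate 1 was the lowest liver and HCD replicate 1 the highest, while the other 4 livers of both diets were intermixed. Means of 76.6 ± 73.6 and 182 ± 146 CPM (SD, n = 3) differed by 1.25 on the log2 scale (standard error 0.84, 95% interval -0.66 to 3.17, adjusted p = 0.431 in edgeR). Leaving out HCD replicate 1 left 0.38 (adjusted p = 0.828), leaving out RD replicate 1 left 0.74 (adjusted p = 0.65), and leaving out RD replicate 3 gave 2.32 (adjusted p = 0.211).

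Igfbp2 (ENSMUSG00000039323, chromosome 1), an abundant binding protein of the fasted and the young liver, had the lowest p of the 10. CPM were 489, 423 and 569 in the RD livers and 753, 897 and 604 in the HCD livers. Every HCD liver was above every RD liver, and the closest pair was RD replicate 3 and HCD replicate 3. With means of 494 ± 72.9 and 751 ± 147 CPM (SD, n = 3), Igfbp2 was at 1.52 times its RD level with HCD (95% interval 1.12 to 2.07). The log2 fold change was 0.61 (standard error 0.20), with an unadjusted p = 0.0136 and an adjusted p = 0.132 in edgeR, so it was not called. DESeq2 gave 0.59 with an adjusted p = 0.029, and over all alternatives the adjusted p ran from 0.029 to 0.383. The Igfbp2 log2 fold change without HCD replicate 1 was 0.60 (adjusted p = 0.162), and with the trend with gene length removed it was 0.49 (adjusted p = 0.232).

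Igfbp4 (ENSMUSG00000017493, chromosome 11), a binding protein that inhibits IGF-I action until it is cleaved, was read at 1633, 1277 and 1593 CPM with RD and at 1441, 1254 and 1441 CPM with HCD. The diets overlapped, and replicate 2 was the lowest liver of each. Its log2 fold change was -0.12 (standard error 0.17, 95% interval -0.51 to 0.27, adjusted p = 0.724 in edgeR), or -0.16 without HCD replicate 1. With other livers left out the Igfbp4 value lay between -0.23 (without RD replicate 2) and -0.06 (without RD replicate 1 or HCD replicate 2). Igfals (ENSMUSG00000046070, chromosome 17), whose product stabilises IGF-I in the circulation, was read at 143, 139 and 117 CPM with RD and at 98.2, 136 and 116 CPM with HCD. It was lowest in HCD replicate 1, the diets overlapped, and its log2 fold change was -0.19 (standard error 0.16, adjusted p = 0.528 in edgeR), or -0.08 (adjusted p = 0.805) without that liver. The Igfals value was -0.31 (adjusted p = 0.292) without HCD replicate 2 and -0.29 (adjusted p = 0.383) with the trend with gene length removed.

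The members differed in their spread between livers of the same diet, to which the female HCD replicate 1 contributes. The standard deviation of log2 CPM within diets was 1.58 for Igfbp1, 1.51 for Socs2 and 1.06 for Irs2, and smaller than these values were 99.5%, 99.4% and 98.8% of the 9117 genes that were tested and averaged 5 CPM or more. The median of those genes was 0.22. Irs1 (0.37), Igf1 (0.25), Igfbp2 (0.25), Igfals (0.20), Igfbp4 (0.16), Insr (0.16) and Ghr (0.09) were closer to it or below it. The share of those genes with a smaller value was 81.6% for Irs1, 59.8% for Igf1 and 59.2% for Igfbp2. It was 41.1% or less for Igfals, Igfbp4, Insr and Ghr. The diet differences of these 7 members had standard errors of 0.14 to 0.27, compared with 0.62 to 0.84 for Igfbp1, Socs2 and Irs2.

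Igfbp1 and Irs2 were both lowest in RD replicate 1 and highest in HCD replicate 1, and other genes that insulin restrains shared this in part. Of the 4 other listed genes, Pck1, G6pc, Ppargc1a and Pdk4, which serve gluconeogenesis and fuel choice, 3 were lowest in RD replicate 1, as were 13.8% of all genes tested. HCD replicate 1 was the highest liver for 2 of the 4, G6pc and Pdk4, as for 19.4% of all genes tested, while Pck1 and Ppargc1a were highest in RD replicate 3. These livers were singled out after the values of Igfbp1 and Irs2 were seen, and the sharing was not tested. G6pc, the last enzyme of glucose release, was read at 42.4, 334 and 436 CPM with RD and at 687, 434 and 471 CPM with HCD. Pck1, which commits carbon to gluconeogenesis, was read at 503, 1621 and 3641 CPM with RD and at 1943, 1552 and 3177 CPM with HCD. Pdk4, which inhibits pyruvate dehydrogenase, was at 3.17, 8.65 and 9.16 CPM with RD and at 41.2, 6.27 and 4.05 CPM with HCD. The RD livers alone spanned a wide range for each of these, and none of G6pc (log2 fold change 0.97, adjusted p = 0.432), Pck1 (0.21, adjusted p = 0.87), Pdk4 (1.32, adjusted p = 0.389) and Ppargc1a (0.27, adjusted p = 0.768) passed the test of diet in edgeR. Without HCD replicate 1 the Pdk4 value was -0.43 and the Ppargc1a value 0.02, and over the livers left out in turn G6pc was as low as 0.46 (without RD replicate 1) and Ppargc1a as high as 0.79 (without RD replicate 3). No source used here says whether the mice were fed or fasted when the livers were taken, and the part of feeding state in these values was not tested. The study lists both diets as given ad libitum and reports a modestly lower food intake with HCD.

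**Figure D3:**
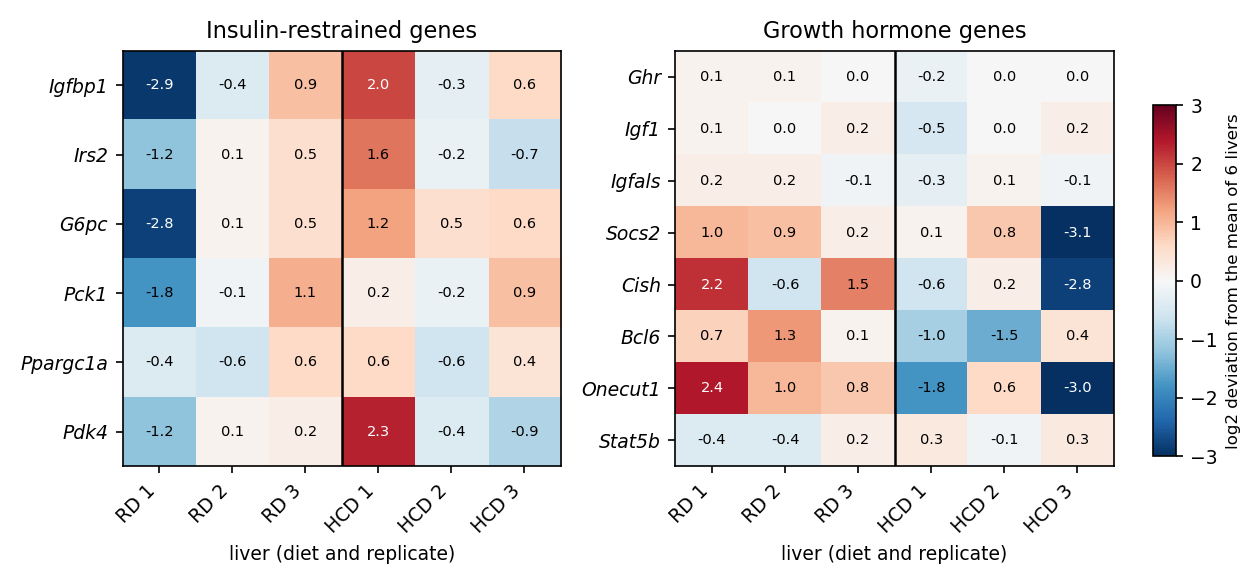
Log2 deviation of CPM from the mean of the 6 livers, with 0.5 added to CPM, for insulin-restrained genes (left) and growth hormone genes (right), 1 column per liver and a line between the diets. RD replicate 1 is blue for Igfbp1, Irs2, G6pc, Pck1 and Pdk4, and HCD replicate 3 is blue for Socs2, Cish and Onecut1.

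Cish, Onecut1 and Bcl6 in the growth hormone pathway also differed widely between livers of the same diet. Jak2 did not, at 14.8 to 16.7 CPM with RD and 15.7 to 17.8 with HCD. Nor did Stat5a, at 15.8 to 18.2 CPM with RD and 12.3 to 14.5 with HCD. Cish, another feedback inhibitor induced through STAT5, was read at 58.9, 7.88 and 36.6 CPM with RD and at 8.24, 14.5 and 1.38 CPM with HCD (log2 fold change -2.09, adjusted p = 0.188 in edgeR). The Cish value was -1.46 without RD replicate 1 and -2.79 without HCD replicate 2. Onecut1, a hepatocyte transcription factor, was read at 46.0, 17.5 and 14.1 CPM with RD and at 1.97, 13.1 and 0.567 CPM with HCD. HCD replicate 3 had the lowest value of the 6 livers for Socs2, Cish and Onecut1, as for 23.5% of all genes tested, while Igf1 was highest in that liver. Onecut1 did not overlap between the diets, and its log2 fold change of -2.31 (adjusted p = 0.188 in edgeR) became -4.25 (adjusted p = 0.0356) without HCD replicate 2 and -1.60 (adjusted p = 0.479) without RD replicate 1. Bcl6, a repressor that opposes STAT5 at many sex-biased genes, was read at 40.8, 62.0 and 27.0 CPM with RD and at 11.6, 8.27 and 31.5 CPM with HCD (log2 fold change -1.34, adjusted p = 0.17 in edgeR), and HCD replicate 3 lay within the RD range. Without that liver the Bcl6 value was -2.12 (adjusted p = 0.0606), and without RD replicate 2 it was -0.99 (adjusted p = 0.439). Without the female HCD replicate 1, Bcl6 was at -1.12 (adjusted p = 0.291), Cish at -2.10 (adjusted p = 0.272) and Onecut1 at -1.90 (adjusted p = 0.301). Of the signal carriers, Stat5a (-0.37, adjusted p = 0.231) and Stat5b (0.35, adjusted p = 0.344) had log2 fold changes of opposite sign, and neither was called in edgeR. Over the livers left out in turn, Stat5b ranged from 0.25 (without RD replicate 2) to 0.56 (without RD replicate 3).

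Among other genes of the 2 pathways, listed by role, 56 of 61 in the tables were tested, and edgeR called 1 higher and 1 lower, where 1.95% and 1.32% of all genes tested were called. Of the 56, 24 were higher and 32 lower, with a median log2 fold change of -0.07, and 18 did not overlap between the diets, a share near the 27.6% of all genes tested. Srebf1, which encodes the lipogenic factor SREBP-1 and is induced by insulin and by the sterol receptor LXR, rose with HCD. It was read at 231, 179 and 269 CPM with RD and at 824, 1020 and 1159 CPM with HCD, which is 2.14 higher on the log2 scale (standard error 0.21, adjusted p = 0.00407 in edgeR). All HCD livers were far above all RD livers, and Srebf1 was called under each of the 16 alternatives. Stat3, which carries interleukin-6 and, in part, growth hormone signals, fell from 161, 195 and 203 CPM with RD to 90.1, 80.1 and 84.1 CPM with HCD. Its groups were well apart and each was narrow, and the log2 difference was -1.14 (standard error 0.14, adjusted p = 0.00948 in edgeR). Without RD replicate 2 the Stat3 value was -1.10 and the call was lost (adjusted p = 0.0516).

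At an unadjusted p of 0.05 or less stood 14 lower and 4 higher of the 56, where 9.81% and 11.1% of all genes tested did. Without HCD replicate 1 these were 10 lower and 4 higher, where 9.74% and 10.4% of all genes tested did. Mtor, the growth-control kinase, was at 45.2, 50.1 and 44.0 CPM with RD and 31.1, 35.7 and 27.2 CPM with HCD, which is -0.57 on the log2 scale (adjusted p = 0.0759 in edgeR). DESeq2 called Mtor (adjusted p = 0.0426). Sh2b1, an adaptor of the insulin and growth hormone receptors, differed by -0.40 on the log2 scale (adjusted p = 0.178 in edgeR), with 44.0 to 49.1 CPM with RD and 30.2 to 40.6 with HCD. Igf2r, which clears IGF-II, differed by -0.31 on the log2 scale (adjusted p = 0.184 in edgeR), with 42.9 to 44.9 CPM with RD and 34.3 to 36.6 with HCD, and by -0.19 (adjusted p = 0.461) with the trend with gene length removed. Neither gene overlapped between the diets.

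Socs3, an inhibitor of cytokine and insulin receptors that STAT3 induces, was read at 14.2, 15.4 and 22.5 CPM with RD and at 11.4, 2.96 and 3.65 CPM with HCD. All HCD livers lay below the RD livers, with HCD replicate 1 nearest to them. The log2 fold change was -1.51 (adjusted p = 0.125 in edgeR) with 6 livers and -2.40 (adjusted p = 0.0111) without HCD replicate 1. With all 6 livers Socs3 was called by DESeq2 (adjusted p = 0.00565) and by edgeR without a filter on low counts (adjusted p = 0.0481). Igfbp7, a further binding protein that endothelial and stellate cells also make, was at 68.2, 53.5 and 64.9 CPM with RD and 97.9, 68.2 and 104 CPM with HCD (log2 fold change 0.54, adjusted p = 0.148 in edgeR, and 0.35 with the length trend removed). Stellate markers summed to 293 to 346 CPM with RD and 314 to 588 CPM with HCD and sinusoidal endothelial markers to 97.3 to 166 and 118 to 180 CPM, and their part in the Igfbp7 values was not tested. Ceacam1, which serves insulin clearance, was at -0.11 on the log2 scale (adjusted p = 0.717 in edgeR), and between -0.24 (without HCD replicate 3) and -0.04 (without RD replicate 3 or HCD replicate 2) when livers were left out. Of the 4 genes listed for cleavage of binding proteins in the tables, only Htra1 had enough counts to be tested, at 0.04.

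Beside the members, the summed markers of all 6 liver cell types overlapped between the diets, and the part of cell makeup in the members' values was not tested. Kupffer cell markers summed to 90.4 to 162 CPM with RD and 130 to 305 CPM with HCD, cholangiocyte markers to 37.4 to 91.9 and 64.5 to 98.1 CPM, and leukocyte markers to 6.01 to 10.9 and 7.46 to 13.5 CPM. Of the 6 marker lists none had a gene at 0 in all livers. All 6 Kupffer markers had higher values with HCD (median log2 fold change 0.91). Of these, 3 had an unadjusted p of 0.05 or less in edgeR and 0 were called. The shares of all genes tested in that direction were 11.1% and 1.95%. DESeq2 called 2, Cd5l (adjusted p = 0.00189) and Clec4f (adjusted p = 0.0416), and 6.97% of all genes it adjusted. All 6 stellate markers had higher values too (median 0.50), with 0 called. Without HCD replicate 1 the medians were 0.62 for Kupffer and 0.20 for stellate markers, with 1 of 6 lower in each list. Of the 5 cholangiocyte markers 4 had higher values (median 0.60, or 0.46 without HCD replicate 1), with 0 called. Hepatocyte markers were higher for 2 and lower for 4 (median -0.25), with 0 called in edgeR, while DESeq2 called Ttr higher (adjusted p = 0.0144). Ttr and Hnf4a, which was lower, did not overlap between the diets, as for 27.6% of all genes tested. Sinusoidal endothelial markers were higher for 4 of 6 (median 0.24, or -0.03 without HCD replicate 1), with 0 called. The Kupffer sum was 90.4, 111 and 162 CPM in the RD livers and 305, 270 and 130 CPM in the HCD livers. Male-biased liver genes, which follow the pulsed growth hormone of males, were lower with HCD for 12 of 12 tested, with a median log2 fold change of -1.36, and 2 of them were called (Moxd1 and Ugt2b38), where 1.32% of all genes tested were called lower. The Moxd1 call was lost in 3 of 16 alternatives, among them those without RD replicate 1 (adjusted p = 0.0569 in edgeR) and without HCD replicate 3 (0.0533), and the Ugt2b38 call in 5 of 16, among them those without RD replicates 1 (0.13), 2 (0.124) and 3 (0.0587) and without HCD replicate 3 (0.112). Without the female liver the median was -0.78, 9 of 12 were lower and 4 were called lower, where 1.03% of all genes tested were. Of 22 listed female-biased genes 9 were tested, and the others did not pass the filter on low counts. Among the others was Hao2, at 74.2 CPM in the female liver and 0 elsewhere. Of the 9 tested, 8 were higher, with a median of 2.07 that became -0.01 without the female liver. Cyp4a14 alone was called (5.26, adjusted p = 0.0474 in edgeR, and 3.24 without the female liver), where 1.95% of all genes tested were called higher. This call was lost in 10 of 15 alternatives, among them those without RD replicates 1 (0.155), 2 (0.189) and 3 (0.0802) and without HCD replicate 3 (0.074).

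The genes whose pattern over the 6 livers was most like a member's were found by the mean absolute difference of log2 deviations. For Igfbp2 they were Commd9 (0.077), Gm10221 (0.077) and Csrp2 (0.079), for Insr they were Fkbp15 (0.041), Zbtb43 (0.045) and Naa30 (0.046), and for Igfbp1 they were G6pc (0.437), Gm42047 (0.555) and Slc16a5 (0.603). The gluconeogenic gene G6pc was thus the closest of 9107 genes to Igfbp1 over these livers, at a larger distance than the neighbours of Insr and Igfbp2. None of the 9 neighbours was itself called in edgeR.

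**Figure D4:**
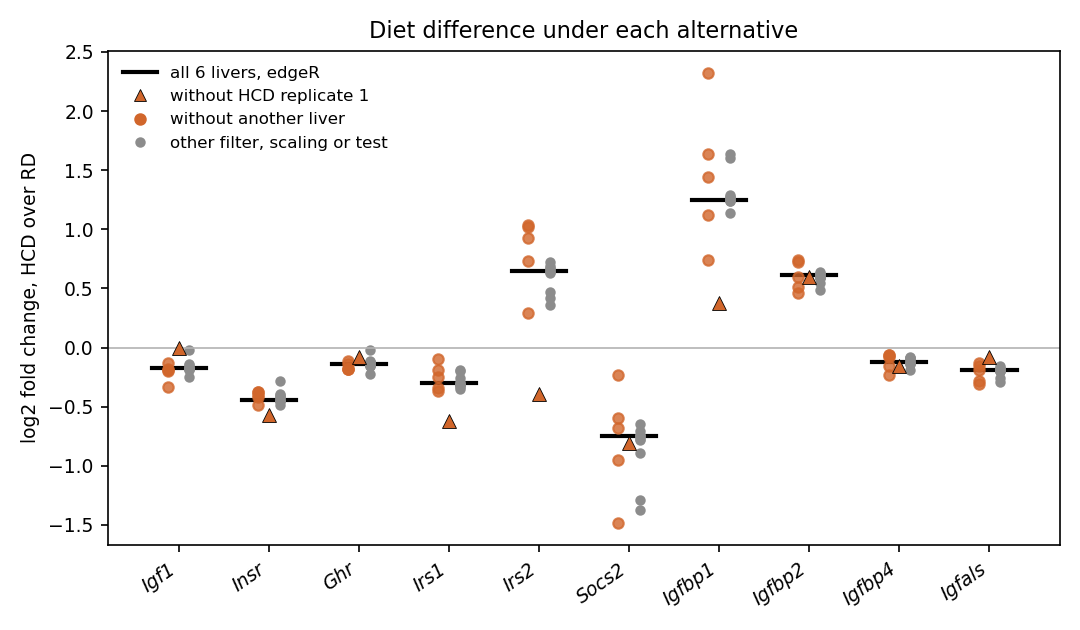
Log2 fold change of HCD over RD for the 10 genes with all 6 livers (black bar), without HCD replicate 1 (triangle), without each other liver (orange points) and under another filter, scaling or test (grey points). All but Igf1 and Irs2 keep their sign throughout, and without HCD replicate 1 Irs2 moves from 0.65 to -0.39 and Igfbp1 from 1.25 to 0.38.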

How the data were processed

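Liver RNA of 6 mice was analysed, with the diet and replicate of each library taken from the sample labels. The counts that the authors deposited are whole, unnormalized numbers of reads for each gene, and these were the values tested. The authors also deposited FPKM, which were used for levels between genes and in some alternatives. Their own log2 fold changes and p-values for HCD against RD were in the tables and were not used. The submitters' processing notes name STAR, HTSeq, DESeq2, edgeR and GRCm39, without versions or roles, and the library kit and strand setting are not given in the sources used here. Gene lengths implied by counts and FPKM matched GENCODE M21 (GRCm38) within 0.1% for 94.9 to 95.0% of genes, so chromosomes are given without positions. Promoters were read from RefSeq on GRCm38.p6.

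Counts were tested in R 4.3.3 with edgeR 4.0.16 (filterByExpr by diet, TMM factors 0.886 to 1.073, glmQLFit and glmQLFTest, no covariates, Benjamini-Hochberg adjustment over 13105 genes, called at an adjusted p under 0.05). The scripts were tested on simulated data. Libraries of the same diet differed by more than counting noise, so the spread between livers sets the precision, and counting limits such as 3 counts cover counting error only. Single values were compared by exact two-sided permutation tests. Alternatives were DESeq2 1.42.0, scaling by RLE, by upper quartile or by library size alone, testing all genes or those averaging 50 counts or more, limma-trend (limma 3.58.1) on log2 of FPKM plus 1 or 0.1, removal of a loess trend with gene length, a replicate block, each liver left out, and an unadjusted p.

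The members and lists were chosen with earlier results of these data known. Named were all members, called genes and the lowest p per role among 63 listed pathway genes, the called and the most abundant sex-biased genes, and the 3 genes most like each of the 3 members of lowest p. Pck1, G6pc, Ppargc1a, Cish, Onecut1, Stat5a, Stat5b, Jak2, Hao2 and the cell type markers Cd5l, Clec4f, Ttr and Hnf4a, all listed, were named after their values were seen. Igf2 and Pappa2 were not analysed here, and 1 listed gene is not reported here. Figures were drawn with Python 3.11.15 and matplotlib 3.10.9.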

Additional observations from a re-analysis of the deposited data

How the results depend on the processing

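Each member had 16 alternatives, and 157 of 160 kept the direction and the side of the threshold. The exceptions were Igfbp2, called by DESeq2 (0.59, adjusted p = 0.029), and the signs of Igf1 (0.00) and Irs2 (-0.39) without HCD replicate 1. The count of members called was 0 with edgeR, 1 with DESeq2 and 2 at an unadjusted p of 0.05 or less. It was 0 in every fit that left out a liver. Of the other listed pathway genes 2 were called with edgeR, 4 without a filter on low counts, 4 with DESeq2, 18 when p was not adjusted, and 1 to 3 when livers were left out, with 1 without RD replicate 2. Htra1 was at -0.02 with library sizes alone. Leaving out livers in turn gave -0.33 to 0.00 for Igf1, -0.39 to 1.04 for Irs2, -0.02 to 0.10 for Htra1, -0.24 to 1.07 for Pck1 and -0.43 to 1.77 for Pdk4.

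A replicate block called 0 members and 2 of the other listed genes, and 136 genes in all against 428 without it. The labels do not say whether same-numbered mice were paired. Deviations of same-numbered livers correlated at -0.084, 0.119 and -0.03, and those of differently numbered livers at -0.143 to 0.147. With 3 livers of each diet, these values cannot settle whether there was a pairing. Over all genes, leaving out a liver gave 39, 57 and 146 calls without RD replicates 1 to 3 and 342, 387 and 104 without HCD replicates 1 to 3. DESeq2 called 992 and the fit without the length trend 255. The cause of these changes was not tested. With 3 mice of each diet, the intervals of Igfbp1, Socs2 and Irs2 are too wide to exclude sizeable differences in either direction.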
